A study of Mus musculus with 5 samples.

Results

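The genes examined are the transcription factor genes of 10 developmental families outside the Hox clusters, and the question was how often REX1 and RNF12 occupancy is found at their promoters in mouse embryonic stem cells (mESCs). They were chosen by symbol from the protein-coding genes of the mm10 annotation (GENCODE release M21): every Dlx, Lhx, Nkx, Pax, Irx, Gata, Tbx or Sox gene with a number, the family of *Six2* and *Six6*, and every Fox gene with a letter and a number, leaving out *Tbx3* and *Sox2*. The rule used no peak values and gave 129 of 21951 protein-coding genes: 44 Fox, 18 Sox, 14 Nkx, 12 Tbx, 9 Pax, 8 Lhx and 6 each of Dlx, Irx, Gata and the *Six2* and *Six6* family.

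The data are 3 lists of chromatin immunoprecipitation and sequencing (ChIP-seq) peaks, each from 1 library of female 129/Sv-Cast/Ei mESCs precipitated through a V5 tag. The REX1 list comes from WT cells with FLAG-V5-REX1, the RNF12 WT list from Rlim+/- cells with FLAG-V5-RNF12 WT, and the RNF12 H569A,C572A list from Rlim+/- cells with the FLAG-V5-tagged catalytic mutant, both RNF12 proteins being stably expressed from an added pCAG vector in a line that keeps 1 Rlim allele. The RNF12 cells were treated with 15 μM of the proteasome inhibitor MG132 for 3 h and cross-linked with 2 mM DSG and 1% formaldehyde, whereas the paper describes REX1 occupancy as determined earlier, which was not reconciled with the label of that library. The 2 control libraries were not analysed here, no list has a replicate, the depth of the libraries is unknown because no read totals come with the peaks, and peaks hold no expression by which the cells could be checked.

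RNF12, encoded by *Rlim*, is a RING-type E3 ubiquitin ligase that marks the zinc-finger protein REX1 for degradation by the proteasome. The genes described here encode DNA-binding proteins that set cell fates in the embryo: GATA factors and FOXA proteins in endoderm and blood, T-box proteins in mesoderm and heart, PAX, SIX6-related and LIM-homeodomain (Lhx) proteins in brain, eye and ear, DLX proteins in forebrain and face, Iroquois (Irx) proteins in tissue patterning, and SOX and forkhead (Fox) proteins in many lineages. Many of them are silent or little expressed in pluripotent cells, and many have promoters within long stretches of CpG-rich DNA, which in such cells are often covered by Polycomb proteins.

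A gene was counted as occupied in a list where at least 1 peak summit, the point of highest signal, lay within 1 kb of the transcription start site (TSS) of any of its annotated transcripts, and such a summit is called a promoter summit here. In the REX1 list 118 of the 129 genes had one (91.5%, 95% Wilson interval 85.4% to 95.2%), against 66.9% of all protein-coding genes. In the RNF12 WT list 117 genes had one (90.7%, 84.4% to 94.6%), against 68.3%, and in the RNF12 H569A,C572A list 118 genes (91.5%, 85.4% to 95.2%), against 67.2%. The developmental genes thus stood above all other protein-coding genes by 24.7 percentage points for REX1 (95% Newcombe interval 18.6 to 28.5), by 22.5 points for RNF12 WT (16.2 to 26.5) and by 24.5 points for the mutant (18.3 to 28.2). Among the 20000 peaks of highest −log10 q in each list alone, the difference was 10.9 points (2.48 to 19.5), 7.35 points (-1.08 to 15.9) and 1.38 points (-5.83 to 9.77), so the interval held 0 for RNF12 WT and the mutant. A promoter summit in all 3 lists was found at 109 genes (84.5%, 77.3% to 89.7%), against 60.2% of all protein-coding genes, and in no list at 5 genes (3.88%, 1.67% to 8.75%), against 25.8%. The intervals cover counting error over genes only, and with 1 library per list no test was made between lists.

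**Figure D1:**
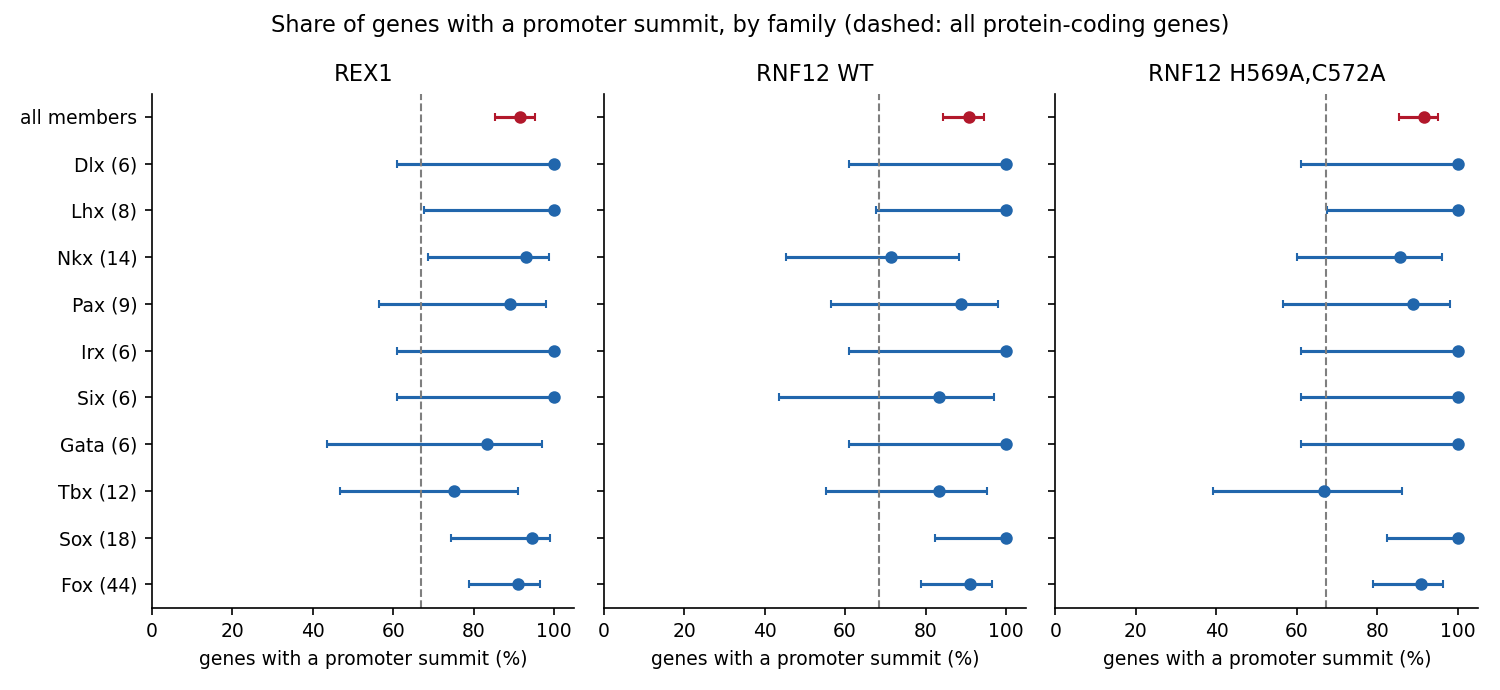
Share of genes with a promoter summit in each list, for all 129 genes (red) and each family (blue, number of genes in brackets). Points are percentages on a linear axis, bars are 95% Wilson intervals, and the dashed line is the share of all protein-coding genes. Dlx, Lhx and Irx stand at 100% in every list, and Tbx lies lowest for REX1 and RNF12 H569A,C572A.

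By family, all 6 Dlx, all 8 Lhx and all 6 Irx genes had promoter summits in every list. Gata genes had them at 5, 6 and 6 of 6 genes for REX1, RNF12 WT and the mutant, Sox genes at 17, 18 and 18 of 18, and the *Six2* and *Six6* family at 6, 5 and 6 of 6. Fox genes had them at 40 of 44 in each list and Pax genes at 8 of 9 in each list. Nkx genes had them at 13, 10 and 12 of 14, and Tbx genes at 9, 10 and 8 of 12. The lowest family share was thus the 66.7% of Tbx genes in the mutant list (interval 39.1% to 86.2%). Of all protein-coding genes, 66.9%, 68.3% and 67.2% had a promoter summit in these lists. The Tbx share in the mutant list thus lay beside that of all genes, and the 71.4% of Nkx genes for RNF12 WT lay near it. The interval of the 6 Dlx or 6 Irx genes (61.0% to 100%) also holds the share of all genes in each list. Every family interval overlapped those of the other families, and no family lacked promoter summits altogether.

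The 5 genes without a promoter summit in any list were *Foxi1*, a gene of the inner ear and kidney, *Foxq1*, *Nkx2-6*, of the pharynx and embryonic heart, *Pax4*, of the pancreatic beta cell lineage, and *Tbx19*, of the pituitary. For *Foxq1* the nearest summits lay 1934 bp, 1879 bp and 1948 bp from a TSS in the REX1, RNF12 WT and mutant lists, close beyond the limit. For *Nkx2-6* they lay 3198 bp, 3032 bp and 2976 bp away. For *Pax4* they lay at 22208 bp, 1972 bp and 8803 bp, and for *Tbx19* at 29828 bp, 11057 bp and 11051 bp. For *Foxi1* they lay at 14812 bp, 23283 bp and 15246 bp, the farthest of the 5 genes for RNF12 WT and the mutant, whereas *Tbx19* was the farthest for REX1. Just inside and outside the limit of 1 kb were *Tbx4* at 863 bp and *Foxd4* at 1375 bp for REX1, and *Foxd4* at 834 bp and *Tbx6* at 1456 bp for RNF12 H569A,C572A. For RNF12 WT the gene just inside it was *Foxd4* at 893 bp.

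**Figure D2:**
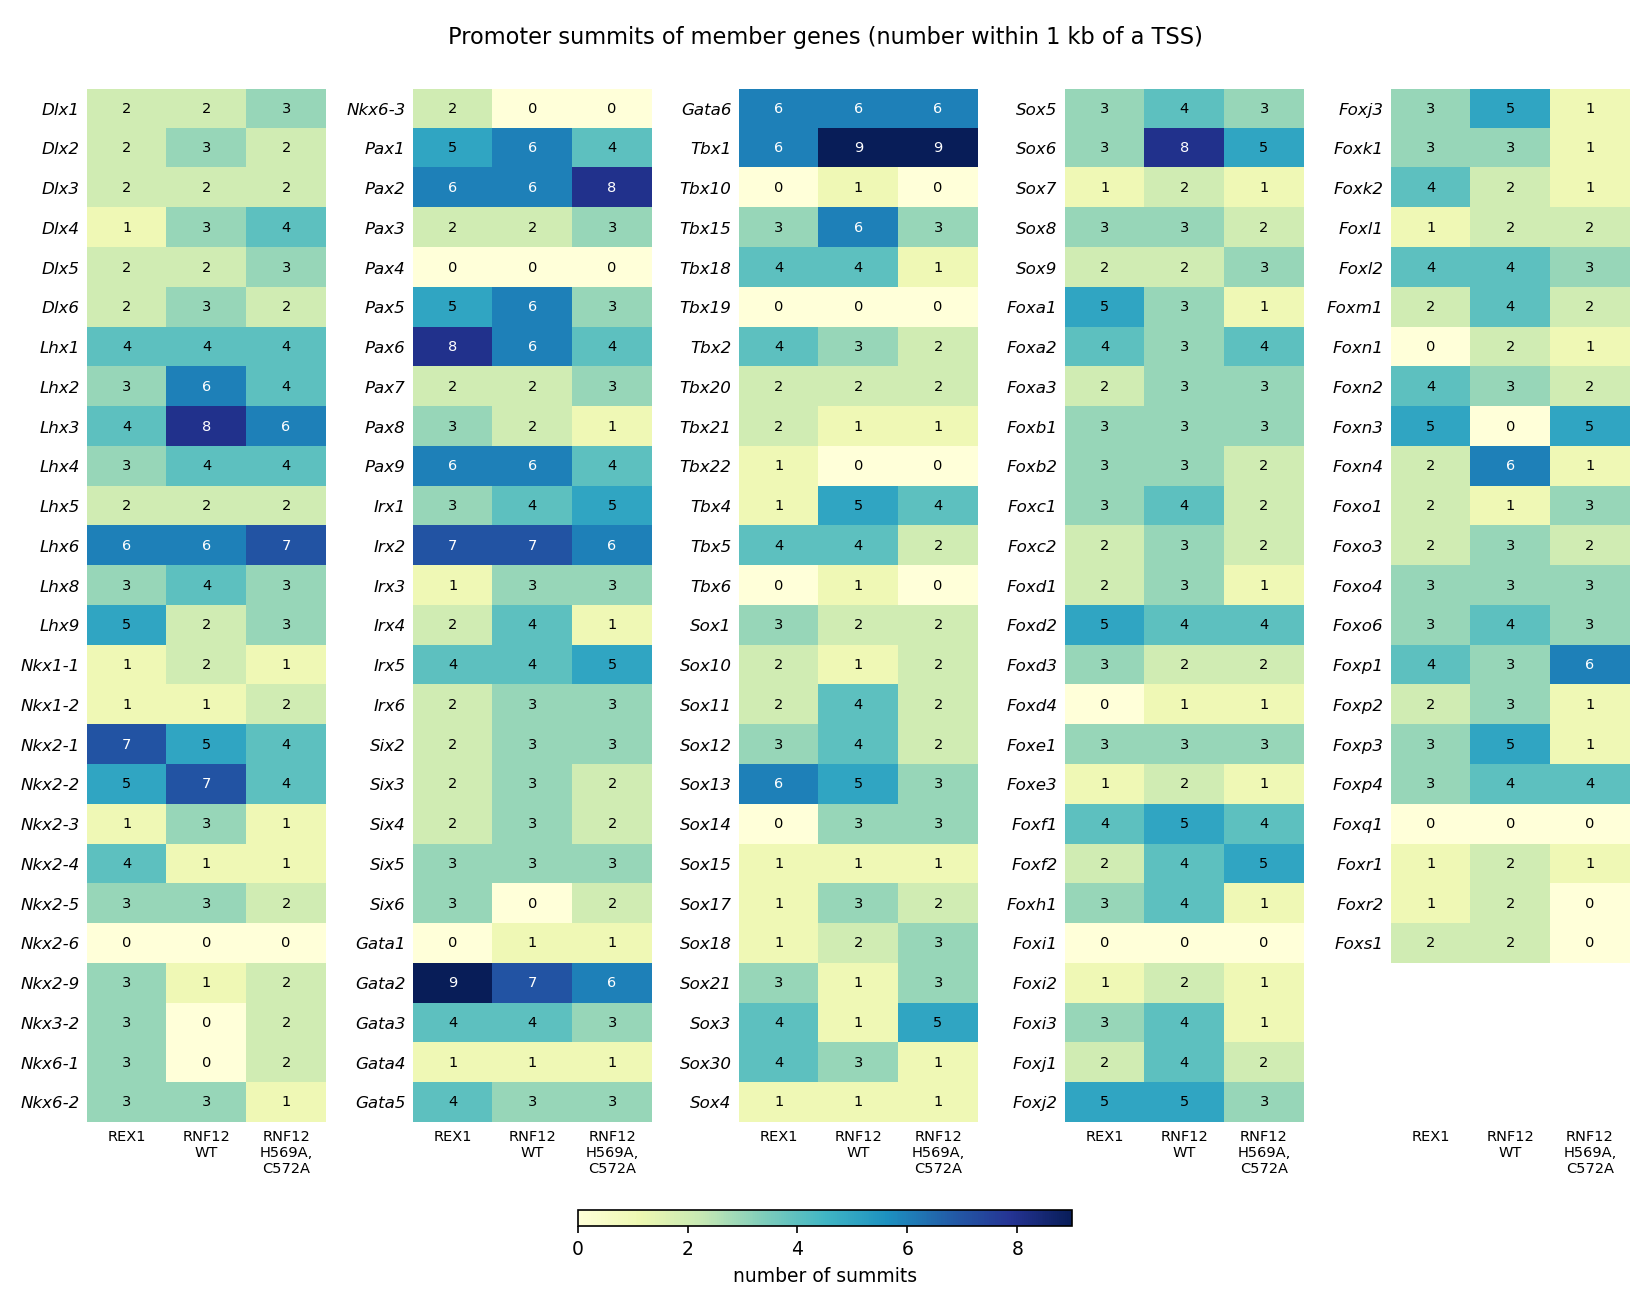
Number of promoter summits of 126 of the 129 genes in the 3 lists, with families in the order Dlx, Lhx, Nkx, Pax, Irx, Six2 to Six6, Gata, Tbx, Sox and Fox. Colour and printed number give the count of summits within 1 kb of a TSS, from 0 to 9. *Tbx1* and *Gata2* reach 9, and the rows of 0 are *Foxi1*, *Foxq1*, *Nkx2-6*, *Pax4* and *Tbx19*.

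Of the other 15 genes outside the shared set, 5 had promoter summits for REX1 and RNF12 H569A,C572A but not for RNF12 WT (3.88%, interval 1.67% to 8.75%, against 1.97% of all protein-coding genes), among them *Foxn3*, *Six6*, of eye and pituitary, *Nkx3-2*, of the axial skeleton, and *Nkx6-1*, of motor neurons and beta cells. *Foxn3* had 5 summits in the REX1 list and 5 in the mutant list, whereas the nearest RNF12 WT summit was 94870 bp away. *Six6* had 3 and 2, with the nearest RNF12 WT summit at 5643 bp. Of the 5 genes, 3 lie on chromosome 12, *Foxn3* and *Six6* among them, and *Nkx3-2* and *Nkx6-1* lie on chromosome 5.

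On chromosome 12 the RNF12 WT list holds 2289 peaks, against 5892 for REX1 and 4303 for the mutant. There, 7 of the 10 developmental genes and 67.0% of the 643 protein-coding genes had an RNF12 WT promoter summit, compared with 10 of 10 and 81.5% for REX1 and 10 of 10 and 81.2% for the mutant. Of all 432 protein-coding genes with REX1 and mutant summits but none of RNF12 WT, 90 (20.8%) were on this chromosome, which carries 2.93% of protein-coding genes. Whether the absence of RNF12 WT at *Foxn3* and *Six6* belongs to the genes or to the chromosome in this library cannot be told apart.

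Summits for both RNF12 proteins but not REX1 were found at *Foxn1*, the thymic epithelial factor, *Gata1*, the erythroid factor, *Sox14* and *Foxd4*, 3.10% of the 129 genes against 3.44% of all protein-coding genes. *Sox14* had 3 promoter summits in each RNF12 list, with a fold enrichment of 5.78 for RNF12 WT and 10.9 for the mutant at the strongest of them, and its nearest REX1 summit was 2989 bp away. REX1 and RNF12 WT shared *Foxr2* and *Foxs1*, REX1 alone had *Nkx6-3* and *Tbx22*, a gene of palate development, and RNF12 WT alone had *Tbx6*, a regulator of paraxial mesoderm, and *Tbx10*. Each of these pairs is 1.55% of the 129 genes, against 2.37%, 2.38% and 2.33% of all protein-coding genes. The *Tbx6* peak, at chr7:126781752-126781890 in a coding exon 323 bp downstream of a TSS, had a fold enrichment of 7.12 and stood at percentile 96.0 of the RNF12 WT list by −log10 q, while the nearest summits in the REX1 and mutant lists were 3744 bp and 1456 bp away. None of the 129 genes had a promoter summit in the mutant list alone (interval up to 2.89%), against 1.59% of all protein-coding genes. Some of these differences rest on single weak peaks, as at *Tbx22* (fold enrichment 3.64, percentile 9.51) and *Tbx10* (3.93, percentile 20.9), and none has a replicate.

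The CpG content of the promoters moved with these counts. A gene was called CpG-rich where the 1 kb around at least 1 TSS had 50% GC or more and an observed-to-expected CpG ratio of 0.6 or more, which held for 104 of the 129 genes (80.6%, interval 73.0% to 86.5%) and for 51.2% of all protein-coding genes. Among CpG-rich genes, promoter summits were found at 103 of 104 developmental genes for REX1 (99.0%), 99 for RNF12 WT (95.2%) and 104 for the mutant (100%), against 97.4%, 97.9% and 99.4% of all CpG-rich genes. The excess of 24.7, 22.5 and 24.5 points became 1.64 points (interval -2.65 to 2.49) for REX1, -2.76 points (-8.72 to -0.00836) for RNF12 WT and 0.647 points (-2.92 to 0.814) for the mutant within CpG-rich genes. The 5 CpG-rich genes without an RNF12 WT summit included *Foxn3*, *Six6*, *Nkx3-2* and *Nkx6-1*, and the 1 without a REX1 summit was *Sox14*. Of the 5 genes without RNF12 WT, 3 lie on chromosome 12, where that list holds few peaks. This chromosome carries 7.75% of the developmental genes and 2.93% of all protein-coding genes. The negative RNF12 WT difference thus cannot be told apart from the shortage of peaks on this chromosome. By family, all 6 Dlx, all 6 Irx and 7 of 8 Lhx genes were CpG-rich, against 10 of 14 Nkx and 6 of 12 Tbx genes. The 100% of the Dlx and Irx families lay close to the 97.4%, 97.9% and 99.4% of all CpG-rich genes. Differences between families within CpG-rich genes were not tested.

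The remaining 25 genes were not CpG-rich by this measure and included all 5 genes without a promoter summit, 6 of the 12 Tbx genes, and *Gata1*. Of them, 15 had a promoter summit for REX1 (60.0%, interval 40.7% to 76.6%), 18 for RNF12 WT (72.0%, 52.4% to 85.7%) and 14 for the mutant (56.0%, 37.1% to 73.3%), each above the 34.8%, 37.2% and 33.4% of all genes without a CpG-rich TSS. Several of these still had long CpG-rich stretches near by. Counted as CpG-rich windows of 200 bp within 3 kb either side of the 5′ end, a measure chosen after the data were seen, the median was 1200 bp in developmental genes and 400 bp in all protein-coding genes. With 200 to 800 bp of such sequence, 84.4% of 32 developmental genes had a REX1 promoter summit against 86.1% of all genes of that class, 87.5% had an RNF12 WT summit against 87.5%, and 84.4% had a mutant summit against 87.6%. With 1000 to 1800 bp, the shares were 94.2% of 52 developmental genes against 97.5% for REX1, 96.2% against 97.9% for RNF12 WT and 98.1% against 98.7% for the mutant. With 2000 to 2800 bp they were 100% of 29 against 99.6%, 89.7% against 97.2% and 100% against 98.7%. Where no such sequence was found, 4 of 7 developmental genes had a REX1 summit (57.1%, interval 25.0% to 84.2%) against 20.7%, 4 an RNF12 WT summit (57.1%) against 23.2%, and 2 a mutant summit (28.6%, 8.22% to 64.1%) against 19.0%. The intervals of the developmental genes hold the share of all genes in the classes from 200 bp to 1800 bp in each list, whereas the class without CpG-rich sequence lay higher for REX1 and RNF12 WT on 7 genes.

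**Figure D3:**
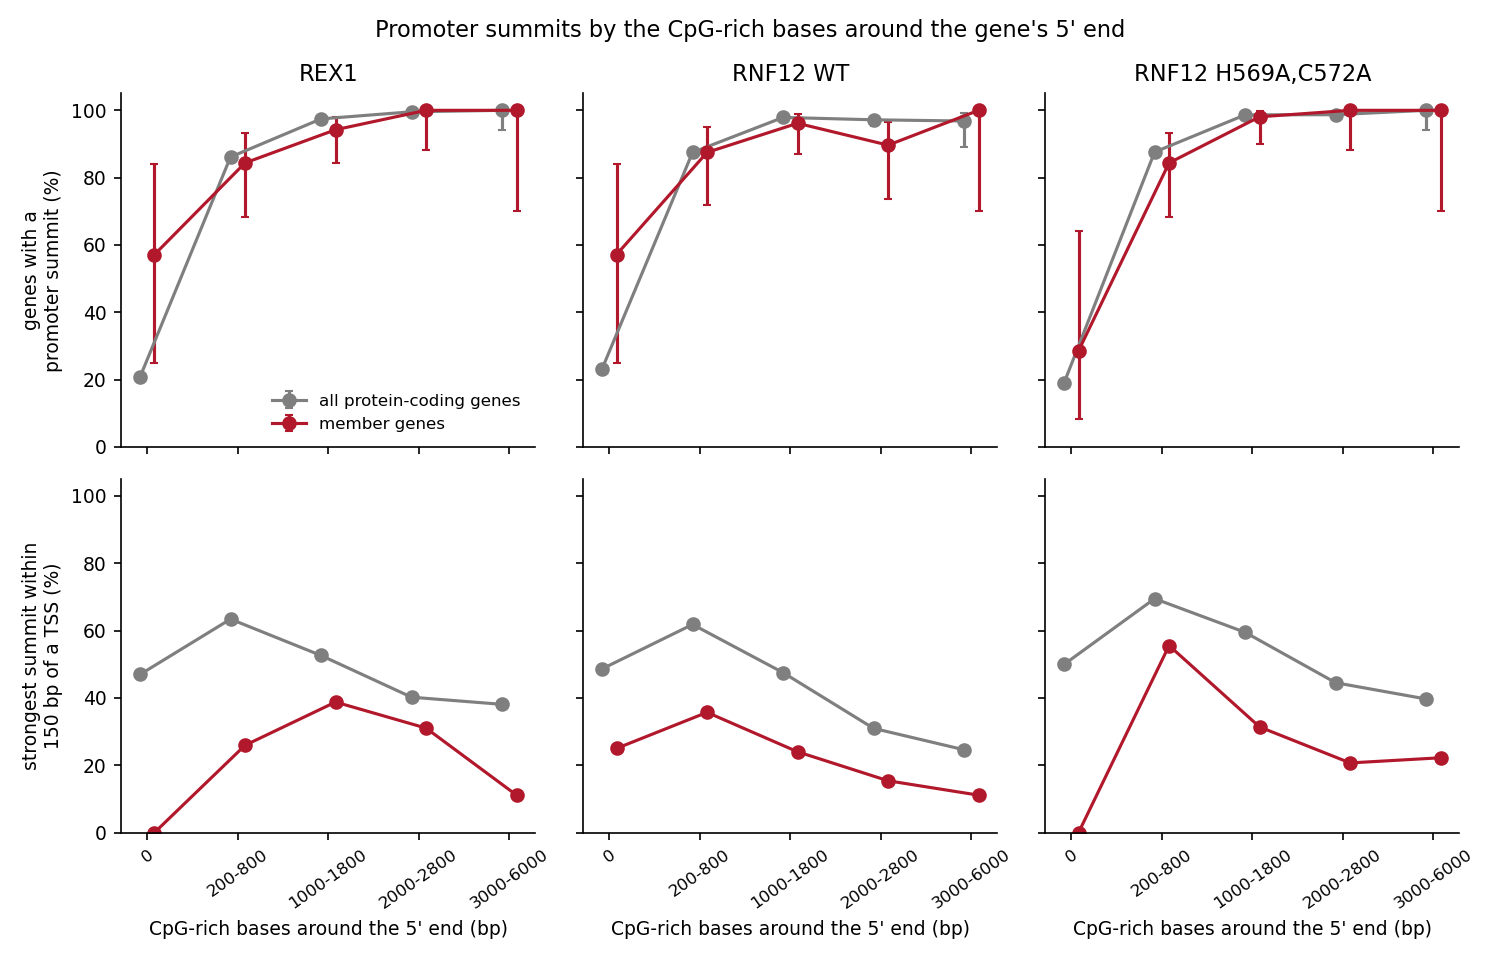
Genes with a promoter summit (top, % with 95% Wilson intervals) and genes whose strongest promoter summit lay within 150 bp of a TSS (bottom, % of genes with a promoter summit), by the number of CpG-rich bases within 3 kb of the 5′ end. Developmental genes are red and all protein-coding genes grey, and the outer classes hold 7 and 9 developmental genes only. From 200 bp to 1800 bp the top lines lie close together and at 2000 bp to 2800 bp the red RNF12 WT point is lower, at 89.7% against 97.2%, while the red bottom line stays below the grey one in each list.

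Developmental genes with a promoter summit usually had several. In the REX1 list 100 of 118 genes (84.7%, interval 77.2% to 90.1%) had more than 1, against 64.8% of all protein-coding genes with a promoter summit, in the RNF12 WT list 101 of 117 (86.3%, 78.9% to 91.4%) against 67.6%, and in the mutant list 88 of 118 (74.6%, 66.0% to 81.6%) against 51.6%. The mean was 3.07, 3.36 and 2.73 summits per gene, against 2.25, 2.43 and 1.89. Their annotated TSSs were fewer (median 2, against 3) and the stretch searched was shorter (median 2294 bp, against 4002 bp). Within CpG-rich genes, 88.3%, 90.9% and 78.8% of developmental genes had more than 1 summit, against 71.5%, 76.1% and 56.5%. By CpG-rich sequence within 3 kb of the 5′ end, the shares were 77.8%, 85.7% and 59.3% with 200 to 800 bp, against 56.9%, 61.0% and 43.3% of all genes of that class. With 1000 to 1800 bp they were 87.8%, 88.0% and 72.5%, against 81.5%, 85.7% and 66.4%. With 2000 to 2800 bp they were 93.1%, 88.5% and 93.1%, against 89.6%, 93.3% and 86.2%. With 3000 to 6000 bp, a class of 9 developmental genes, they were 77.8%, 88.9% and 77.8%, against 92.1%, 91.8% and 87.3%. The gap was thus widest with 200 to 800 bp and turned for RNF12 WT with 2000 to 2800 bp and in all 3 lists with 3000 to 6000 bp. The mean number of summits was higher in developmental genes with 200 to 800 bp, at 2.89, 3.54 and 2.56 against 1.98, 2.10 and 1.66, and with 1000 to 1800 bp, at 3.27, 3.48 and 2.65 against 2.71, 3.02 and 2.21. It was lower with 2000 to 2800 bp, at 3.24, 3.35 and 3.10 against 3.5, 4.05 and 3.18, and with 3000 to 6000 bp, at 2.56, 2.78 and 2.56 against 3.98, 4.64 and 3.75.

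Genes with many promoter summits were spread over families. *Tbx1*, a heart and pharyngeal arch regulator, had 6 in the REX1 list, 9 in the RNF12 WT list and 9 in the mutant list. *Gata2*, of blood progenitors, had 9, 7 and 6. *Pax2*, of kidney and midbrain, had 6, 6 and 8, *Irx2* had 7, 7 and 6, and *Lhx6*, of cortical interneurons, had 6, 6 and 7. By contrast *Gata4*, *Sox4* and *Sox15* had 1 in every list. The stretch searched was 8004 bp at *Gata2*, 5351 bp at *Pax2*, 5519 bp at *Irx2* and 5818 bp at *Lhx6*. These exceed the median of 2294 bp in developmental genes, as does the 6594 bp at *Gata4*. No summit was counted for more than 1 of the 129 genes.

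The strongest promoter summit, by −log10 q, sat farther from the TSS than in other genes. It lay within 150 bp of a TSS at 36 of 118 developmental genes for REX1 (30.5%, interval 22.9% to 39.3%) against 57.4% of all protein-coding genes with a promoter summit, at 28 of 117 for RNF12 WT (23.9%, 17.1% to 32.4%) against 54.7%, and at 39 of 118 for the mutant (33.1%, 25.2% to 42.0%) against 63.5%. The difference from all other genes was -27.1 points for REX1 (Newcombe interval -34.7 to -18.3), -31.0 points for RNF12 WT (-37.9 to -22.5) and -30.7 points for the mutant (-38.6 to -21.7). The median distance was 292.5 bp, 294 bp and 231.5 bp, against 109 bp, 128 bp and 97 bp. In CpG-rich genes the shares within 150 bp were 34.0%, 25.3% and 34.6%, against 60.1%, 56.4% and 67.1%. With 200 to 800 bp of CpG-rich sequence they were 25.9%, 35.7% and 55.6%, against 63.4%, 61.8% and 69.5%, with 1000 to 1800 bp 38.8%, 24.0% and 31.4%, against 52.6%, 47.5% and 59.5%, and with 2000 to 2800 bp 31.0%, 15.4% and 20.7%, against 40.2%, 31.0% and 44.5%. The share was lower in developmental genes in each of these classes and lists, with a gap wider than overall for REX1 with 200 to 800 bp and narrower than overall in the other cases. With 3000 to 6000 bp it was 11.1%, 11.1% and 22.2% against 38.1%, 24.6% and 39.7%. Distances were taken to the nearest of all TSSs of a gene, and developmental genes had fewer of these (median 2, against 3). Counted from the annotated 5′ end alone, with a single TSS per gene, the difference was smaller, at -17.2, -20.4 and -13.9 points. The part that follows from the number of TSSs was not tested.

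Taking any promoter summit in place of the strongest, 61.0%, 60.7% and 55.1% of developmental genes had 1 within 150 bp of a TSS, against 77.0%, 76.9% and 75.4%. The strongest summit fell in a coding exon at 40.7%, 31.6% and 30.5% of developmental genes, against 17.8%, 18.5% and 17.8% of all genes, and in an untranslated exon at 17.8%, 19.7% and 30.5%, against 31.6%, 27.6% and 34.6%. It lay upstream of the gene at 25.4%, 28.2% and 24.6%, close to the 26.5%, 27.5% and 25.4% of all genes. Examples in coding exons were *Foxa2* and *Pax1*, each in all 3 lists.

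**Figure D4:**
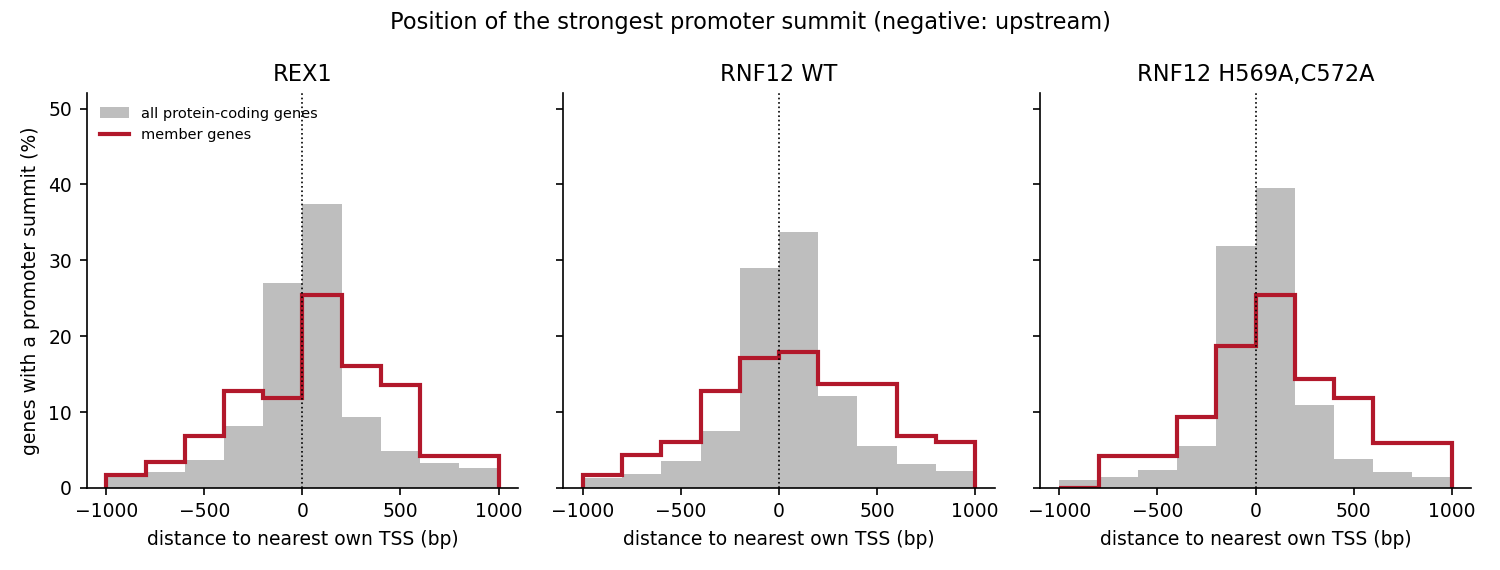
Distance of the strongest promoter summit from the nearest TSS of its own gene, in bins of 200 bp, negative upstream and positive downstream. The y axis is the percentage of genes with a promoter summit, in developmental genes (red outline) and in all protein-coding genes (grey). In each list the red outline is lower than the grey bars within 200 bp of the TSS on both sides and higher from 200 bp to 1000 bp downstream and from 200 bp to 800 bp upstream.

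By strength, the median peak at developmental genes was ordinary to slightly weak for promoter peaks, and fewer of their peaks reached the top of each list. Their median percentile by −log10 q among all peaks of the list was 79.2 for REX1, 81.2 for RNF12 WT and 74.1 for the mutant, against 80.3, 84.7 and 76.8 for all protein-coding genes with a promoter summit. The strongest 10% of each list was reached by 21 of 118 genes for REX1 (17.8%, interval 11.9% to 25.7%) against 31.1%, by 33 of 117 for RNF12 WT (28.2%, 20.8% to 37.0%) against 38.9%, and by 4 of 118 for the mutant (3.39%, 1.33% to 8.39%) against 11.3%. Within CpG-rich genes the strongest 10% was reached by 18.4%, 31.3% and 2.88% of developmental genes with a promoter summit, against 35.7%, 45.3% and 13.9%. The median percentiles there were 82.9, 82.7 and 76.6, against 83.7, 88.2 and 80.2. Over all developmental genes, the median fold enrichment over the control was 5.88, 5.78 and 11.1, against 5.69, 5.86 and 11.5, and fold enrichments are compared within a list only. For REX1 the *Six2* and *Six6* family had the highest family median (percentile 93.3). For RNF12 WT it was the Lhx family (91.5), with 5 of 8 genes in the strongest 10% (62.5%, interval 30.6% to 86.3%). No Lhx gene stood there for REX1 or the mutant (interval up to 32.4%). Each of these intervals holds the share of all genes, at 31.1%, 38.9% and 11.3%.

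**Figure D5:**
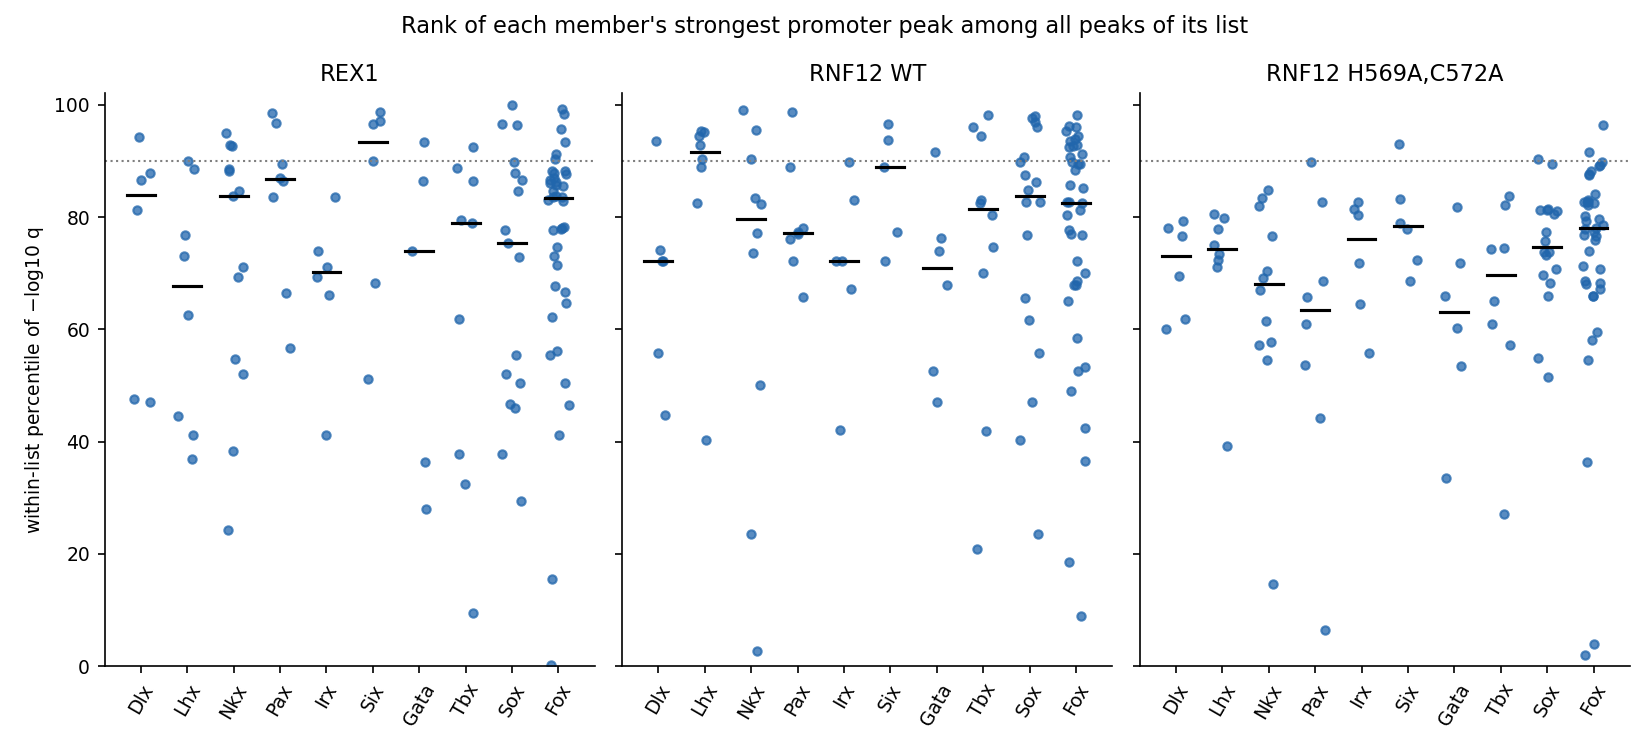
Percentile of each gene's strongest promoter peak among all peaks of its list by −log10 q, by family. Points are genes with a promoter summit, black bars are family medians, and the dotted line marks the strongest 10% of the list. Only 4 genes pass the line in the mutant list, against 21 for REX1 and 33 for RNF12 WT.

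The strongest REX1 peak belonged to *Sox30*, a gene of the male germ line. Its fold enrichment was 36.8 with a −log10 q of 160, within the top 0.0177% of the list, at chr11:45979844-45980308, with the summit 239 bp upstream of the TSS. In the RNF12 WT list the strongest *Sox30* summit lay 205 bp upstream with a fold enrichment of 7.38 (percentile 96.0), and in the mutant list 218 bp downstream in a coding exon with 12.1 (percentile 81.0). *Pax6*, the regulator of eye and forebrain, had a fold enrichment of 14.7 in the REX1 list at a coding exon (chr2:105683825-105684080), 166 bp downstream of a TSS inside the gene. Its strongest RNF12 summits lay more toward the 5′ end, in an untranslated exon, with 5.60 for RNF12 WT and 7.90 for the mutant.

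*Foxa3*, an endoderm and liver factor, had fold enrichments of 14.8, 7.38 and 28.3 in the REX1, RNF12 WT and mutant lists, the highest of the family in the REX1 and mutant lists. Its strongest summits lay 746 bp to 799 bp upstream of its own TSS but only 80 bp, 93 bp and 40 bp from a TSS of *Sympk*, which runs the other way, so the peak cannot be assigned to *Foxa3*. The nearest TSS to the strongest summit was that of another gene at 13 of 118 developmental genes for REX1, 10 of 117 for RNF12 WT and 10 of 118 for the mutant, and 2, 2 and 4 of these neighbours were protein-coding. *Foxp3*, the regulatory T cell factor, was such a case, with 11.3, 5.97 and 14.9 near the starts of *Flicr* and *Ppp1r3f*.

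Next to *Foxa3* and *Foxp3*, genes that ranked high in all 3 lists included *Foxj2* and *Sox11*. *Foxj2*, a widely expressed forkhead gene, had fold enrichments of 9.76, 7.46 and 17.0 for REX1, RNF12 WT and the mutant, at percentiles 95.7, 92.9 and 87.4. *Sox11*, of neural progenitors, had 11.4, 5.58 and 19.0, at percentiles 96.4, 87.4 and 89.4. Within the RNF12 WT list the high fold enrichments included those of *Pax1*, of the vertebral column and thymus, with 8.75 (REX1 11.5, mutant 9.74), and *Foxi3*, of teeth and hair, with 8.49 (REX1 4.98, mutant 12.05). In the mutant list *Sox12* was also high, with 19.4 (REX1 3.83, RNF12 WT 7.97).

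The sequences at 3 of these strong summits are shown to set the bases beside the values. Each is the 101 bases centred on the summit, written on the strand of the gene from the GRCm38 (mm10) sequence, and windows that touch an untranslated region were left out. The windows are Sox30 at chr11:45980021-45980121 (plus strand), Pax6 at chr2:105683870-105683970 (plus) and Pax1 at chr2:147362472-147362572 (plus).
Sox30, REX1: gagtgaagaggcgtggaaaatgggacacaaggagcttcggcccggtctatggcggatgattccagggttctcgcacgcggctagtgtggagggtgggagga
Pax6, REX1: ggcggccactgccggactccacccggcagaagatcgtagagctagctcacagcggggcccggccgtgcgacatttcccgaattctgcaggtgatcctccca
Pax1, RNF12 WT: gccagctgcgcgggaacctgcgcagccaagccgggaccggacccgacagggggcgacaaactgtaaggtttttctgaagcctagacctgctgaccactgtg
Their GC content was 60.4%, 65.3% and 63.4%, with 7, 9 and 7 CG dinucleotides, and none of them holds either of the motif strings searched.

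REX1 is related to the zinc-finger protein YY1 and binds like sequences. The string ATGGCKVC, in which K stands for G or T and V for any base but T, was looked for in either orientation up to 50 bp from each summit. At the strongest REX1 promoter summit it was found in 14 of 118 developmental genes (11.9%, interval 7.20% to 18.9%), against 15.7% of all protein-coding genes. Over all their REX1 promoter summits it was found in 26 of 362 (7.18%, 4.95% to 10.3%), against 9.58%, in 17 of 393 RNF12 WT summits (4.33%, 2.72% to 6.82%), against 4.30%, and in 10 of 322 mutant summits (3.11%, 1.70% to 5.62%), against 4.61%. The YY1 core AAGATGGC, which overlaps the first string in its last letters, was found at 0 of the 362 REX1 summits (interval up to 1.05%), against 2.73% of all promoter summits, and at 1 RNF12 WT summit and 1 mutant summit. In the RefSeq promoters of GRCm38.p6, which run from 250 bases before to 50 after the start and matched 88 of the 129 symbols, ATGGCKVC was found at 3 developmental genes (3.41%, 1.17% to 9.55%) against 9.65% of all genes matched, and AAGATGGC at 1 (1.14%) against 3.64%. The strings were thus not more frequent at REX1 summits of developmental genes than at those of all genes.

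The REX1 summits with the string are shown for 1 gene in each of 6 families, the one of highest −log10 q whose window holds no untranslated bases, with the string in capitals on either strand. They are *Foxa3*, whose neighbour *Sympk* was named above, at chr7:19024247-19024347 (minus strand), *Gata3* at chr2:9874830-9874930 (minus), *Irx1* at chr13:71959797-71959897 (minus), *Nkx1-1* at chr5:33434248-33434348 (minus), *Sox12* at chr2:152398949-152399049 (minus) and *Tbx2* at chr11:85832103-85832203 (plus).
Foxa3, REX1: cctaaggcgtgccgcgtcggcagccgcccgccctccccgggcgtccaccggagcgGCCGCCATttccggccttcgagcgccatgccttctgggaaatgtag
Gata3, REX1: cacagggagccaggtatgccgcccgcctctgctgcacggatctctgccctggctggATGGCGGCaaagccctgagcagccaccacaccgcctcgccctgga
Irx1, REX1: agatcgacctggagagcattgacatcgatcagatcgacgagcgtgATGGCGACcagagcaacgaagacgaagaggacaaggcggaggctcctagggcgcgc
Nkx1-1, REX1: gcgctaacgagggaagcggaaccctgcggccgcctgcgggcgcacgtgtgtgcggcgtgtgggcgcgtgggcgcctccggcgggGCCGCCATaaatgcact
Sox12, REX1: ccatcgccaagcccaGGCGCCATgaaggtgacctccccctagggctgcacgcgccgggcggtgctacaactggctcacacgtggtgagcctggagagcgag
Tbx2, REX1: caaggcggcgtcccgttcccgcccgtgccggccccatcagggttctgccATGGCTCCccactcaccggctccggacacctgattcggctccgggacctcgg
Their fold enrichments in the REX1 list were 14.8, 5.44, 6.46, 7.15, 3.83 and 7.64 in this order, within the range of 2.37 to 36.8 over all developmental genes with a REX1 promoter summit. *Gata3*, a regulator of T cells and trophoblast, and *Irx1* carried the string in coding exons, and *Nkx1-1*, *Sox12* and *Tbx2*, a heart and limb repressor, upstream of the gene. The *Tbx2* summit lay 56 bp from the start of the non-coding gene 2610027K06Rik and 398 bp from its own TSS.

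In many genes, promoter summits of different lists lay close together, taking the closest pair over all summits of the gene. Of the 111 developmental genes with REX1 and RNF12 WT promoter summits, 88 (79.3%, interval 70.8% to 85.8%) had a pair of summits within 100 bp of each other, against 75.3% of all protein-coding genes with both. For REX1 and the mutant these were 80 of 114 (70.2%, 61.2% to 77.8%), against 68.7%, and for RNF12 WT and the mutant, whose lists may share a control library, 95 of 113 (84.1%, 76.2% to 89.7%), against 76.4%. The developmental genes also had more summits each. Neither the part of this in the shares nor the share of such pairs that would arise by chance was tested.

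By lineage, all 7 endoderm genes, *Gata4*, *Gata6*, *Sox7*, *Sox17*, *Foxa1*, *Foxa2* and *Foxa3*, had promoter summits in every list (interval 64.6% to 100%). The base for this and each lineage count that follows is 66.9%, 68.3% and 67.2% of all protein-coding genes for REX1, RNF12 WT and the mutant. The interval of the 7 endoderm genes holds each of these shares. Fold enrichments of the endoderm genes at the strongest summit, aside from *Foxa3*, ran from 3.06 at *Gata6* to 8.89 at *Foxa1* for REX1, from 4.46 at *Gata4* to 7.48 at *Gata6* for RNF12 WT, and from 8.45 at *Foxa2* to 14.7 at *Foxa1* for the mutant. In the REX1 list *Gata4* (percentile 28.0), *Gata6* (36.4) and *Sox7* (37.8) ranked low, while *Sox17* (87.8) and *Foxa1* (93.3) ranked high. The order differed for RNF12 WT, where *Gata6* (91.5), *Foxa2* (92.7) and *Foxa1* (93.9) ranked high and *Gata4* (47.0) again low.

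Of 22 neural genes, all had REX1 and mutant summits and 19 had RNF12 WT summits, with *Six6* and *Nkx6-1* among the exceptions. Of 15 mesoderm and heart genes, 14, 15 and 14 had summits for REX1, RNF12 WT and the mutant, *Tbx6* being the exception. Of 15 genes that are widely expressed in adult and embryonic tissues, such as *Foxo1*, *Foxk1* and *Foxj3*, 15, 14 and 15 had them, *Foxn3* being the exception, and all 15 were CpG-rich. CpG-rich genes made up 85.7% of the endoderm, 90.9% of the neural and 80.0% of the mesoderm and heart genes. Of all CpG-rich protein-coding genes, 97.4%, 97.9% and 99.4% had a promoter summit for REX1, RNF12 WT and the mutant. More than 1 promoter summit was found at 4, 6 and 4 of 7 endoderm genes for REX1, RNF12 WT and the mutant (57.1%, 85.7% and 57.1%), against 64.8%, 67.6% and 51.6% of all protein-coding genes with one, and at 21 of 22, 16 of 19 and 21 of 22 neural genes with one (95.5%, 84.2% and 95.5%). The shares were 100%, 93.3% and 78.6% in mesoderm and heart genes and 93.3%, 85.7% and 73.3% in widely expressed genes. The median percentile of the strongest peak was 64.6, 91.5 and 71.8 in endoderm genes, 84.1, 72.2 and 71.3 in neural genes, 73.0, 76.9 and 76.2 in mesoderm and heart genes and 83.5, 91.0 and 82.5 in widely expressed genes, so the order of endoderm and neural genes was not the same in the REX1 and RNF12 WT lists. The differences between these gene groups were not tested. Leaving the 15 widely expressed genes out, 29.1%, 24.3% and 31.1% of the developmental genes had the strongest summit within 150 bp of a TSS and 83.5%, 86.4% and 74.8% had more than 1 summit.

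For comparison, 104 developmental transcription factor genes of other families, a list written by hand that holds no gene of the 10 families, were counted by the same rule. Of these, 97 (93.3%), 98 (94.2%) and 100 (96.2%) had promoter summits for REX1, RNF12 WT and the mutant, against 66.9%, 68.3% and 67.2% of all protein-coding genes. CpG-rich were 77.9%, against 51.2%. More than 1 summit was found at 85.6%, 85.7% and 71.0% of those with one, against 64.8%, 67.6% and 51.6%. The strongest summit lay within 150 bp of a TSS at 35.1%, 32.7% and 37.0%, against 57.4%, 54.7% and 63.5%. The REX1 string was found at the strongest REX1 summit of 2 of 97 (2.06%, interval 0.567% to 7.21%), against 15.7% of all protein-coding genes. In the 10 families the string was found at 14 of 118 (11.9%, 7.20% to 18.9%). The differences between this list and the 10 families were not tested.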

How the data were processed

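Reads were trimmed with Trim Galore 0.6.7, aligned with Bowtie2 2.5.0 to mm10 masked at parental differences, handled with SAMtools 1.10 and, after alleles were pooled again, used to call narrow peaks with MACS2 2.2.7.1 (versions per the labels). The authors deposited 1 peak list per library, with positions, summit offset, fold enrichment over the control, −log10 p and −log10 q. The score that the authors deposited beside these was not used, and the fold enrichment is a ratio that was compared only within a list. The control libraries are labelled as an input for REX1 and an input for RNF12. Which of them was used to call each list is not stated in the sources used here.

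Summits were matched to the TSSs of all GENCODE M21 transcripts of each gene. Where a gene had several promoter summits, the one with the highest −log10 q was taken. CpG content and motif strings were read from GRCm38. The step that matches summits to TSSs and the intervals were tested on simulated data. Calculations were run in Python 3.11.15 with pandas 2.3.3 and numpy 2.4.6, and plots drawn with matplotlib 3.10.9.

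The genes, the lineage lists and the comparison list were chosen with earlier results of these data known. Genes named are those of highest fold enrichment or rank, those in 1 or 2 lists or none, the endoderm list, and those nearest to the limit of 1 kb. Genes with the most summits, those used as examples and those whose sequence is shown were chosen after their values were seen. Values of 3 of the 129 genes enter the counts but are not reported here.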

Additional observations from a re-analysis of the deposited data

How the results depend on the processing

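Of 107 values recomputed, 78 stayed within the interval of the reported value, 28 moved beyond it and 1 turned its sign. Values are given for REX1, RNF12 WT and the mutant in this order unless named. With −log10 q of at least 5, shares of occupied genes were 79.1% for REX1 and 75.2% for RNF12 WT, and 62.8% in all 3 lists. The differences from other genes at that cut were 22.5, 19.6 and 23.7 points. In the 20000 peaks of highest −log10 q the shares were 45.7%, 47.3% and 29.5%, and 11.6% in all 3 lists. The differences from other genes were 10.9, 7.35 and 1.38 points, the last pair with intervals that hold 0. With the 5′ end alone the shares were 83.7% for REX1, 85.3% for the mutant and 72.9% in all 3 lists. The differences from other genes were then 22.5, 24.1 and 23.4 points, and those in summits within 150 bp -17.2, -20.4 and -13.9 points. Within CpG-rich genes the shares were 99.0%, 95.2% and 100%, and 94.2% in all 3 lists, against 95.1% of all CpG-rich genes. The differences there were 1.64, -2.76 and 0.647 points, the second reversed. Of the 5 CpG-rich genes without an RNF12 WT summit, 3 lie on chromosome 12, where that list holds few peaks. Genes without a neighbouring TSS within 2 kb differed by 30.5, 31.3 and 29.9 points. A limit of 500 bp gave 72.9% in all 3 lists, and 3 kb gave 89.9% there and 95.3% for the mutant. Differences from other genes were 22.1, 19.7 and 21.6 points at 500 bp and 23.1, 22.5 and 23.8 points at 3 kb. Except for CpG-rich genes, the share of all genes found in all 3 lists was not recomputed under these alternatives. The differences in the share of genes with more than 1 summit stayed within their intervals under the 5 alternatives recomputed for them, but not within classes of CpG-rich length, where they shrank or turned with 1000 bp or more. The alternatives for the number and position of summits were chosen after the data were seen. No paired analysis was possible because each list comes from 1 library. Depth is unknown, so a gene without a summit cannot be called unoccupied.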
